A study of Mus musculus with 7 samples.

Results

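The membrane-anchored serine proteases of luminal prostate epithelium and their Kunitz-type inhibitors are described here, starting from Tmprss2, the locus whose promoter drives the transgene of the study. The genes were chosen by symbol as Tmprss2, Tmprss4, St14, Hpn, Prss8, Spint1 and Spint2, and every probe set that the platform annotation assigns to 1 of them was taken, which gave 7 of 18193 named genes and 11 of 45037 probe sets. Expression was measured on Affymetrix Mouse Genome 430 2.0 arrays in luminal cells sorted from mouse prostates as CD49f-positive and Sca1-negative, after removal of cells carrying CD31, CD45 or Ter119. The 4 T-ETV1 arrays (A to D) came from mice in which human ETV1 cDNA, encoding an ETS transcription factor, is expressed from the endogenous mouse Tmprss2 promoter, and these cells were also gated for GFP. The 3 WT arrays (A to C) came from wild-type mice and were not gated for GFP, so the allele and the gate cannot be told apart. The labels used here do not give the strain, the age, the number of mice behind an array, whether 1 or both Tmprss2 alleles were altered, or where in the gene the cDNA lies. They speak of biological replicates without naming the mice, so the p-values measure the spread between these arrays.

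Type II transmembrane serine proteases such as Tmprss2, Tmprss4, St14 (matriptase) and Hpn (hepsin) are held in the membrane by a segment near their amino terminus and carry a trypsin-like catalytic domain outside the cell. They are made as inactive zymogens that become active on cleavage, and Prss8 (prostasin), which is held by a lipid anchor, works in a cascade with matriptase in epithelia. Spint1 and Spint2 encode HAI-1 and HAI-2, membrane-bound inhibitors with Kunitz domains that block these enzymes. In human prostate cancer the androgen-responsive TMPRSS2 promoter is often fused to ETS genes, and HPN is a known overexpressed gene of that disease.

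Markers of other cell types differed between the arrays. All 10 measured genes of a list of 12 luminal markers, Krt8 and Krt18 among them, lay above the background level on every array, and their list score, the mean log2 deviation from the 7-array mean, stayed between -0.10 and 0.17. The background level of an array was the 95th percentile of 80 probe sets of olfactory and vomeronasal receptor genes, at an intensity of 15.95 to 27.6. The mean score of 5 lists of other cell types (basal, endothelial, fibroblast, smooth muscle and leukocyte) was -1.26, -1.21, 0.80 and -1.03 on T-ETV1 arrays A to D, against -0.24, 0.43 and 2.52 on WT arrays A to C. The C arrays were thus the highest of each genotype, and T-ETV1 A, B and D lay below every WT array. Summed intensities of the 12 basal genes ran from 3497 to 21600 in T-ETV1 and from 9312 to 26022 in WT, with 11 of 12 genes lower. The sums of the 12 endothelial genes ran from 658 to 2882 in T-ETV1 and from 2102 to 7643 in WT, with 12 of 12 lower. Fibroblast sums ran from 2449 to 14299 in T-ETV1 and from 7329 to 38188 in WT (12 of 12 genes lower), smooth muscle sums from 212 to 1128 in T-ETV1 and from 773 to 6213 in WT (11 of 12 lower), and leukocyte sums from 5925 to 16821 in T-ETV1 and from 7048 to 25696 in WT (12 of 14 lower). The leukocyte direction rested on WT C, with a median difference of -0.84 on all arrays and 0.47 without that array. The lowest leukocyte sums were mostly Cd52, at 5751 on T-ETV1 D and 6831 on WT B, a gene with a log2 difference of 0.03. The lowest basal sum in T-ETV1 was mostly Dst, at 3007 on T-ETV1 A, with a log2 difference of -0.05. No marker of these lists was listed at 0 on any array. An intensity of 1 was listed for Cdh5 on T-ETV1 D, Adgre1 on T-ETV1 B, and Cnn1 and Lmod1 on WT A. Whether 1 is a floor of the deposited values is not given.

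None of the 7 genes was called as different in T-ETV1 by a limma fit over all genes, in which 0 of 18193 genes (0%) had a Benjamini-Hochberg adjusted p under 0.05. At an unadjusted p under 0.05 the fit held 1113 genes (6.12%) and none of the 7, and the fit over probe sets held 5.89% of them and none of the 11. In none of the 11 probe sets did the groups of arrays separate, which they did in 6.28% of all probe sets. The differences of the 7 genes had a median of 0.12 on the log2(intensity + 16) scale, with 5 higher and 2 lower in T-ETV1 (Tmprss2 and Spint2, of which Spint2 turned to 0.12 after median centring), while the median over all genes was -0.03. They ran from -0.15 for Tmprss2 to 0.22 for Prss8. The intervals show what the arrays could resolve, from a fold of 0.835 to 1.17 for Spint2 down to one of 0.368 to 3.27 for Tmprss4 in the fit over all probe sets.

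**Figure D1:**
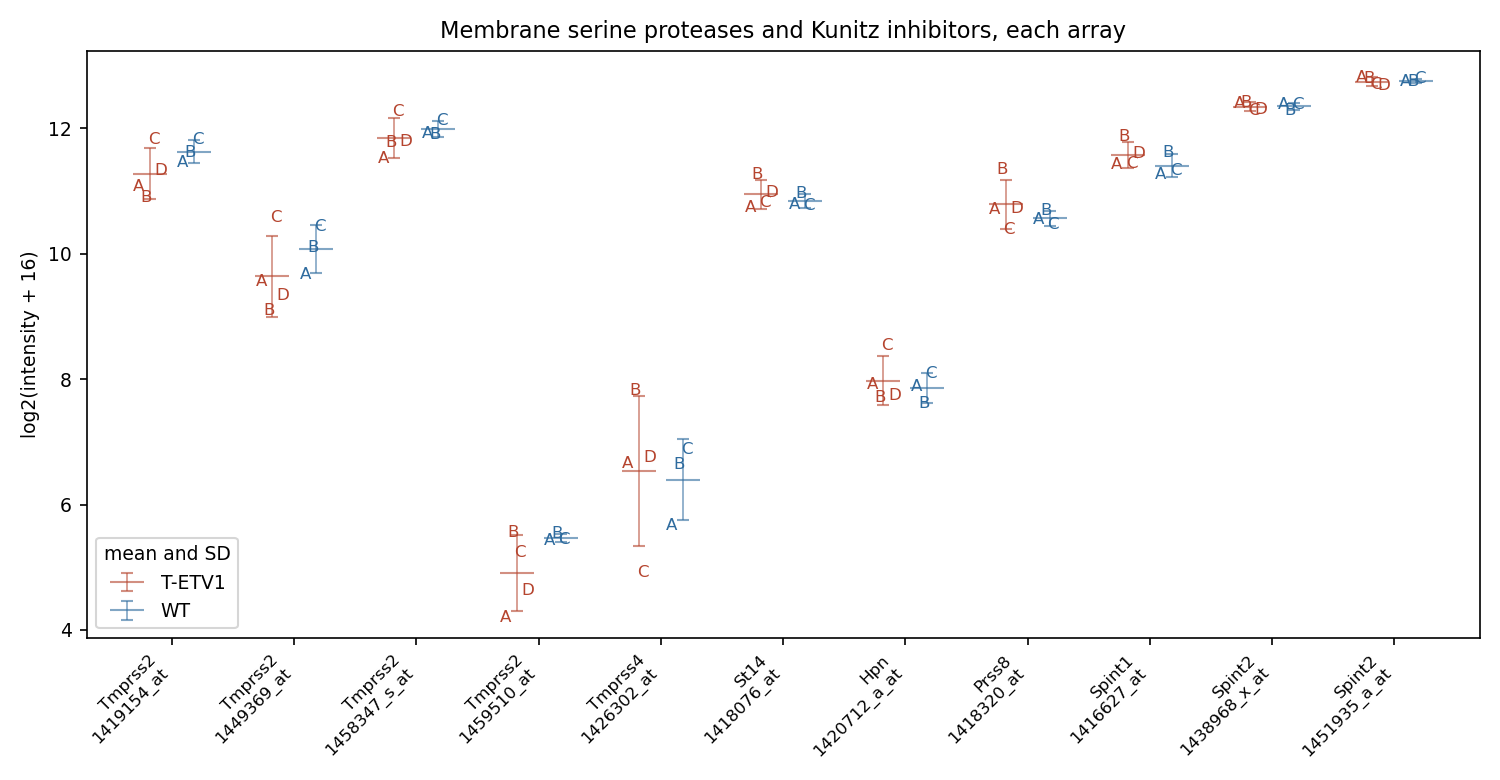
Level of each of the 11 probe sets as log2(intensity + 16), with a letter for each array, T-ETV1 at the left and WT at the right of each probe set, and the mean with its SD as a bar. The groups overlap in every probe set, and T-ETV1 C lies above T-ETV1 A, B and D in the 3 bright Tmprss2 probe sets.

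The 250 bases before the annotated start of Tmprss2, the locus whose promoter drives the transgene, are shown here from RefSeq (GRCm38.p6, minus strand, chr16:97611196-97611445), with the ETS core GGAA, read on either strand and so also as TTCC, in capitals. The same window of Spint1 (plus strand, chr2:119237110-119237359) is set beside it because it was the only member window with the longer ETS motif CCGGAAGT. Its capitals mark GGAA, CCGGAAGT, which contains GGAA, and the GC box GGGCGG, also as CCGCCC.
Tmprss2: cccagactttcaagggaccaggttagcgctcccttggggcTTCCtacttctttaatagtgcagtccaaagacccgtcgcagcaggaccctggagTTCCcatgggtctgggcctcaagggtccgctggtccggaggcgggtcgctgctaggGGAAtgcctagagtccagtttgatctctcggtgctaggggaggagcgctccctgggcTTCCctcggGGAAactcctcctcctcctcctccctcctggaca
Spint1: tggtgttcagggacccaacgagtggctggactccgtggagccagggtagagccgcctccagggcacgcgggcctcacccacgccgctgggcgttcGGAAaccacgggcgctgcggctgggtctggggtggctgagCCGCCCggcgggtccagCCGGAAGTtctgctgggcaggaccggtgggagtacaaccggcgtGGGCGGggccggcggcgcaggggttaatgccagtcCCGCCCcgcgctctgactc

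The Tmprss2 window held 5 copies of GGAA, 2 on the strand shown and 3 on the other, and no CCGGAAGT, no GC box, no TATAAA and no androgen receptor motif AGAACA, each searched on both strands. GGAA is found in 93.4% of 32851 RefSeq promoter windows of this length, the GC box in 32.7%, AGAACA in 16.1%, TATAAA in 12.4% and CCGGAAGT in 2.88%. The Spint1 window held 2 copies of GGAA, the second of them within the CCGGAAGT that starts 98 bases before the gene's start, and 3 GC boxes, 1 on the strand shown and 2 on the other. Windows were also found for Spint2 and for 2 starts of Hpn, so that 4 of the 7 genes matched. The Spint2 window had 1 GGAA and 3 GC boxes, and the Hpn windows had 4 and 5 copies of GGAA, with 2 GC boxes in the first. A match describes these letters and is not a binding site.

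Tmprss2 was read by 4 probe sets, 3 of them bright, and in each of these 3 the arrays T-ETV1 A, B and D lay below every WT array while T-ETV1 C did not. The probe set 1458347_s_at, the brightest, had intensities of 2908, 3508, 4945 and 3535 on T-ETV1 arrays A to D, against 3878, 3818 and 4470 on WT arrays A to C. T-ETV1 C was the highest of the 7 arrays and T-ETV1 A the lowest. The mean log2 value was 11.84 ± 0.32 (SD, n = 4) in T-ETV1 and 11.99 ± 0.13 (SD, n = 3) in WT, a difference of -0.15 ± 0.19 (SE) that was not called (limma adjusted p = 0.954 over all probe sets).

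The probe set 1419154_at had intensities of 2129, 1887, 3598 and 2570 on T-ETV1 arrays A to D, against 2795, 3111 and 3601 on WT arrays A to C. T-ETV1 C matched WT C closely, and the other T-ETV1 arrays were the lowest of the 7. Its difference was -0.35 ± 0.24 (SE), a fold of 0.784 with a 95% interval of 0.532 to 1.16 (limma adjusted p = 0.905). The third, 1449369_at, had intensities of 742, 532, 1508 and 630 on T-ETV1 arrays A to D, against 801, 1084 and 1374 on WT arrays A to C. Here T-ETV1 C was again the highest of all and T-ETV1 B the lowest, and the difference was -0.43 ± 0.38 (limma adjusted p = 0.924). Across the 7 arrays these 3 probe sets moved together, with Pearson correlations of 0.791 to 0.925 between them, which share the same RNA. The fourth probe set, 1459510_at, was near the background level, at 2.40, 31.1, 21.7 and 8.86 on T-ETV1 arrays A to D and at 26.9, 30.4 and 27.3 on WT arrays A to C. It lay above that level on 1 of 4 T-ETV1 arrays and on 3 of 3 WT arrays, and its log2 difference was -0.56 ± 0.32 (limma adjusted p = 0.890). The level itself was higher on the T-ETV1 arrays, at 22.9 to 27.6, than on the WT arrays, at 15.95 to 22.3.

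The 4 Tmprss2 probe sets were thus all lower on average in T-ETV1, by unequal amounts, and taking their mean in place of the brightest moved the difference to -0.37 ± 0.22 (limma adjusted p = 0.854). That mean gives 1459510_at, near the background level and with the largest difference, the same weight as the bright ones. The difference of 1459510_at depended on the added value, at -1.22 with 1 and -0.22 with 64 in place of 16. Within the pairs of arrays of the same letter, 1419154_at differed by -0.39 for A, -0.72 for B and -0.001 for C, and was lower in all 3 pairs, as were 15.5% of all probe sets. For 1449369_at the pair differences were -0.11, -1.004 and 0.13, and for 1458347_s_at they were -0.41, -0.12 and 0.15, so that the C pair had the opposite sign in both. The size of the difference depended on single arrays, and T-ETV1 C made it smaller. Without that array the 3 bright probe sets did not overlap between the groups and were lower in T-ETV1, as were 9.27% of all probe sets (5.26% were higher without overlap), and the differences became -0.29 for 1458347_s_at (limma adjusted p = 0.570 over genes), -0.53 for 1419154_at and -0.74 for 1449369_at (limma adjusted p = 0.484 and 0.476 over probe sets). Without both C arrays they were -0.22, -0.44 and -0.56, also not called. The difference of 1458347_s_at was -0.04 without T-ETV1 A, -0.07 without WT C and -0.01 after median centring.

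**Figure D2:**
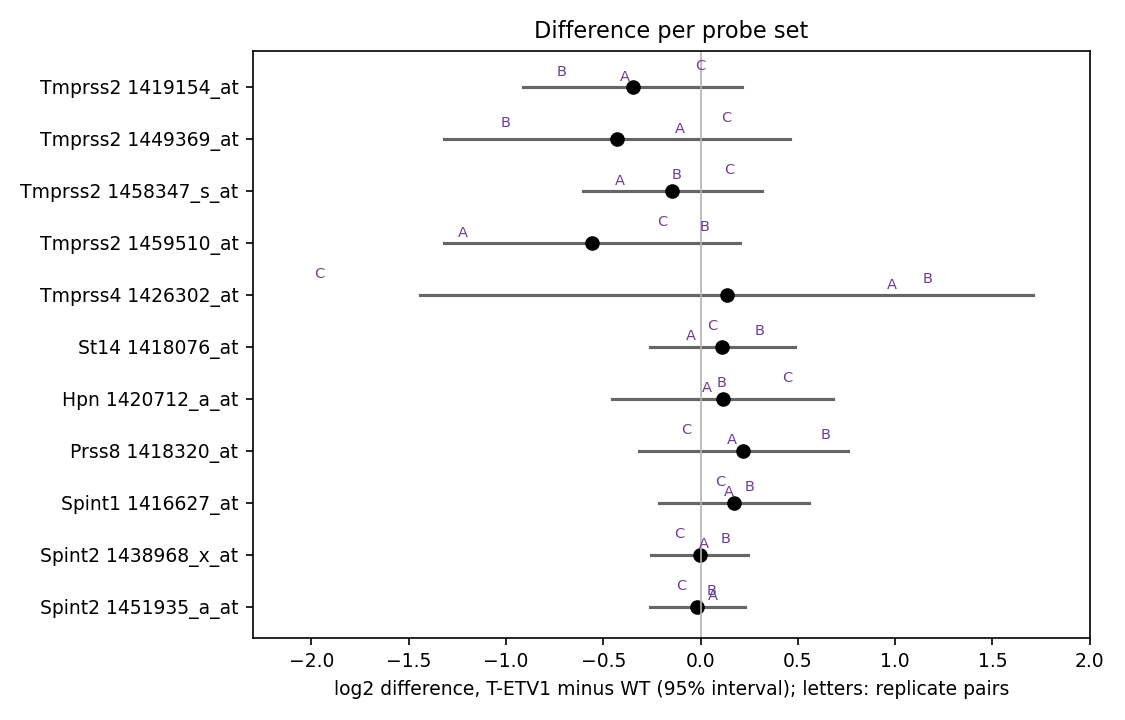
Log2 difference, T-ETV1 minus WT, of each probe set with its 95% interval from the limma fit over all probe sets. The letters A, B and C show the difference between arrays of the same replicate letter, a pairing that is inferred. Every interval includes 0, those of the Tmprss2 probe sets lie mostly below it, and that of Tmprss4 is the widest.

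The level of Tmprss2 also moved with the markers of other cell types. Over the 7 arrays the brightest Tmprss2 probe set had a Pearson r of 0.789 (exact permutation p = 0.0397) and a Spearman rho of 0.929 (exact permutation p = 0.0067) with the mean score of the 5 other-cell lists. Of the 7 relations computed, 1 for each gene, the adjusted values for Tmprss2 were 0.278 for r and 0.0472 for rho, and r was 0.725 without T-ETV1 C and WT C, the arrays farthest from the median score. Of all 18193 genes 10% had an r with this score at least as high. The other 2 bright probe sets, looked at after the values were seen, had r of 0.873 and 0.871. The median r of all genes with the score was 0.167. The median intensities of T-ETV1 arrays A to D were 48.5, 54.4, 62.9 and 54.0. Those of WT arrays A to C were 51.8, 61.3 and 73.7. As for the brightest Tmprss2 probe set, they were lowest on T-ETV1 A and peaked on array C within each genotype. Median centring took the Tmprss2 difference from -0.15 to -0.01. The part of the array-wide level in the relation of Tmprss2 to the score was not tested. No correlation was computed on median-centred values or within a genotype, of 4 and 3 arrays. In a fit with genotype and the score together, the slope of Tmprss2 on the score was 0.17 ± 0.07 log2 units per unit of score (SE; limma unadjusted p = 0.0498, adjusted 0.346). That slope had an unadjusted p under 0.05 in 14.4% of all genes and an adjusted one in 1.39%, and of the 7 genes Hpn also had an unadjusted p under 0.05 (slope 0.22 ± 0.09, limma adjusted p = 0.314). In the same fit the Tmprss2 difference was 0.13 ± 0.18 (limma adjusted p = 0.969), against -0.15 without the score. The score differs between the genotypes too, and the part of other cell types in the Tmprss2 values was not tested. In sorted cells of this kind, less RNA per cell and fewer cells of a type cannot be told apart.

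**Figure D3:**
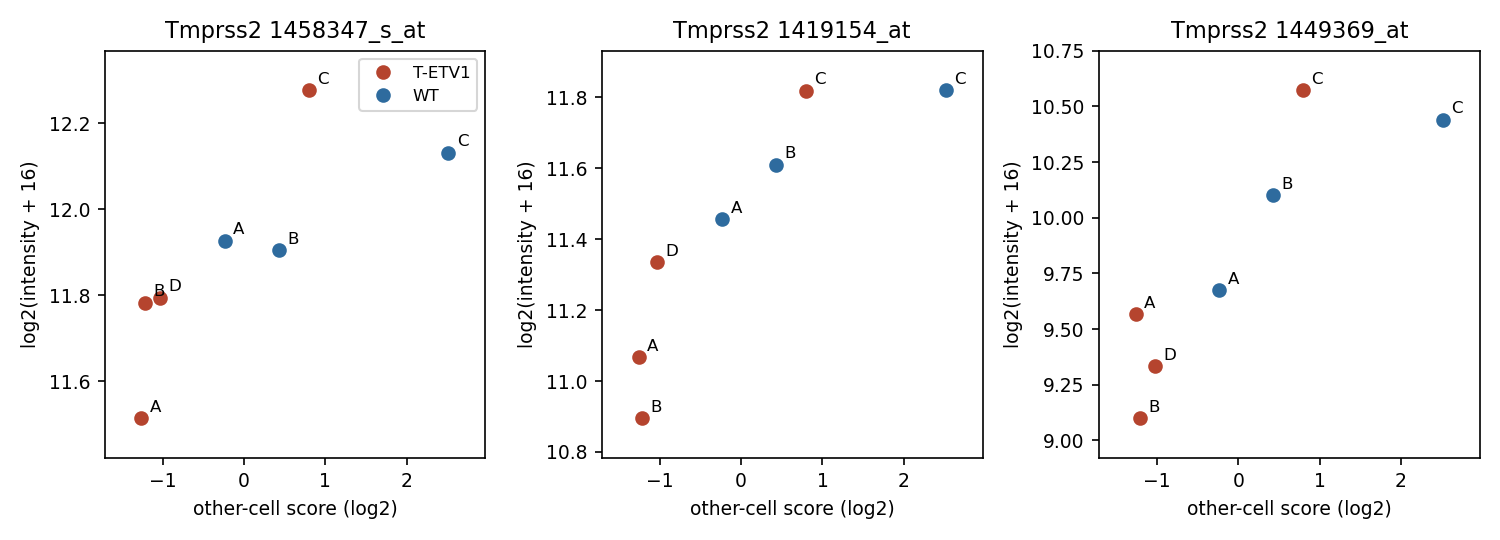
Log2 values of the 3 bright Tmprss2 probe sets against the mean score of the 5 other-cell marker lists, 1 point per array with its letter, T-ETV1 in red and WT in blue. T-ETV1 A, B and D lie at the low end of both axes and both C arrays at the high end.

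The neighbours of Tmprss2 on the chromosome were taken as the 4 nearest named and measured genes on each side. On the side of Mx2 they were Mx2, Fam3b, Mx1 and Bace2, and on the other Ripk4, Prdm15, C2cd2 and Zbtb21. None of the 8 passed (lowest limma adjusted p 0.881). Fam3b, which encodes a secreted cytokine-like protein, had the largest difference at 0.70 ± 0.55. It was higher in all 3 letter pairs, as were 11% of all probe sets. Its intensities were 637, 2931, 1163 and 1245 on T-ETV1 arrays A to D, against 444, 1105 and 973 on WT arrays A to C. T-ETV1 B was far above the rest and the groups overlapped, and the difference was 0.31 without T-ETV1 B and 0.30 without WT A. Ripk4, a kinase of epithelial differentiation, differed by -0.13 ± 0.27, and C2cd2 by 0.03 ± 0.16.

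The genes whose pattern over the 7 arrays was most like that of Tmprss2 were named by Pearson r among 6023 genes with a mean intensity of at least 100 and an SD of at least 0.2. They were Lmnb1, which encodes lamin B1 (r = 0.993), Herc6, a HERC family ubiquitin ligase (0.990), Marcks, a protein kinase C substrate at the membrane (0.989), Hexim1, an inhibitor of the elongation factor P-TEFb (0.981), and Diaph2, a formin (0.972). Of the 6023 genes 74 had an r of 0.9 or more. The 5 were picked as the highest of all these correlations over 7 arrays, so their r values are not a test of a shared control. Lmnb1 had intensities of 178, 389, 1110 and 359 on T-ETV1 arrays A to D, against 454, 422 and 834 on WT arrays A to C. As with Tmprss2, T-ETV1 A was the lowest array and T-ETV1 C the highest. None of the 5 differed by the test, with log2 differences between -0.39 and -0.15 (limma adjusted p of 0.888 or more). With the mean of each gene's probe sets they ran from -0.54 for Marcks to -0.01 for Hexim1. The differences of the 5 too depended on single arrays. Lmnb1 was -0.01 without T-ETV1 A, -0.86 without T-ETV1 C and -0.09 without WT C, Herc6 lay between -0.50 and -0.05, Marcks between -0.29 and -0.06, Hexim1 between -0.32 and -0.07 and Diaph2 between -0.40 and -0.13, each lowest without T-ETV1 C.

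The other proteases were read by 1 probe set each. St14, whose product matriptase activates prostasin and the precursor of hepatocyte growth factor, had intensities of 1701, 2453, 1798 and 1991 on T-ETV1 arrays A to D, against 1760, 1983 and 1722 on WT arrays A to C. The B arrays were the highest of their groups, and 6 of the 7 arrays lay within 1701 to 1991. The difference was 0.11 ± 0.15 (SE; limma adjusted p = 0.946), a fold of 1.08 with a 95% interval of 0.834 to 1.4 in the fit over probe sets. Without T-ETV1 B it was 0.01.

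Prss8, the prostasin gene, had intensities of 1651, 2574, 1328 and 1669 on T-ETV1 arrays A to D, against 1474, 1642 and 1399 on WT arrays A to C. T-ETV1 A, B and D were above every WT array and T-ETV1 C below every one. The difference was 0.22 ± 0.22 (limma adjusted p = 0.923), and it was 0.04 without T-ETV1 B and -0.003 with the other-cell score as a covariate. With that score Prss8 had a Spearman rho of -0.821 (exact permutation p = 0.0341, adjusted 0.119) and a Pearson r of -0.621 (exact permutation p = 0.144, adjusted 0.455), opposite in sign to Tmprss2, and r was -0.476 without T-ETV1 C and WT C.

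Hpn, the hepsin gene, was dimmer, at 224, 194, 357 and 198 on T-ETV1 arrays A to D and at 219, 179 and 258 on WT arrays A to C. Its C arrays were the highest and its B arrays the lowest of each genotype, and T-ETV1 was the higher in all 3 letter pairs (0.03, 0.11 and 0.44 for A, B and C), as were 11% of all probe sets. The difference of 0.12 ± 0.24 (limma adjusted p = 0.972) was -0.07 without T-ETV1 C, -0.01 without WT B and 0.47 with the other-cell score as a covariate (limma adjusted p = 0.730 for that fit).

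Tmprss4 was the dimmest and most variable gene of the 7. It had intensities of 84.4, 209, 14.3 and 91.4 on T-ETV1 arrays A to D, against 34.8, 84.2 and 102.0 on WT arrays A to C. T-ETV1 C was under the background level, and T-ETV1 B had the highest value. The difference was 0.13 ± 0.67 (limma adjusted p = 0.989), and 6.51% of all genes had a larger SE. It was -0.29 without T-ETV1 B, -0.23 without WT A, 0.67 without T-ETV1 C and 0.91 without both C arrays.

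Both inhibitors were bright, and Spint1 varied more than Spint2. Spint1, which encodes HAI-1, had intensities of 2719, 3736, 2749 and 3074 on T-ETV1 arrays A to D, against 2457, 3137 and 2560 on WT arrays A to C. The groups overlapped through WT B. Within the letter pairs T-ETV1 was higher by 0.14 for A, 0.25 for B and 0.10 for C, and 11% of all probe sets were higher in all 3 pairs. The difference was 0.17 ± 0.16 (limma adjusted p = 0.914), a fold of 1.13 with a 95% interval of 0.861 to 1.47 in the fit over probe sets. It was 0.07 without T-ETV1 B and 0.10 without WT A.

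Spint2, which encodes HAI-2, was the steadiest gene of the 7. Its brighter probe set, 1451935_a_at, had intensities of 7149, 7122, 6628 and 6536 on T-ETV1 arrays A to D, against 6838, 6844 and 7114 on WT arrays A to C. The second, 1438968_x_at, had 5374, 5455, 4953 and 5025 on T-ETV1 arrays A to D, against 5312, 4989 and 5347 on WT arrays A to C. Both spanned narrow and overlapping ranges. The differences were -0.02 ± 0.10 and -0.004 ± 0.10 (limma adjusted p = 0.996 and 0.999 over all probe sets), with 95% intervals of -0.26 to 0.23 and of -0.25 to 0.24. Of all genes 97.4% had a larger SE than Spint2, which lay between the percentiles 99.1 and 99.3 of the probe sets of each array. Its SE in the fit over genes was 0.091. Those of the 10 luminal markers, also bright, ran from 0.085 for Pbsn to 0.230 for Cldn3.

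Several of the 7 genes had the same array letter as the highest in both genotypes. St14, Prss8 and Spint1 had both B arrays as the highest of their groups (3 of 7 genes, against 8.72% of all genes), and Tmprss2 and Hpn had both C arrays as the highest (2 of 7, against 19.7%). The B peak was not particular to these genes. The luminal marker score was also highest on the B array of each genotype, at 0.17 on T-ETV1 B and 0.04 on WT B. The lowest arrays shared a letter in 3 genes, both A arrays for Spint1 (1 of 7, against 13.2% of all genes), both B arrays for Hpn (1 of 7, against 8.42%) and both C arrays for Prss8 (1 of 7, against 6.74%). Over the 7 arrays St14 and Spint1 had a Pearson r of 0.951 (exact permutation p = 0.0052) and a Spearman rho of 0.821 (exact permutation p = 0.0341), and r was 0.827 without T-ETV1 B and T-ETV1 D. The pairs of St14 with Prss8 and of Prss8 with Spint1 had r of 0.893 and 0.872 (exact permutation p = 0.0252 and 0.0159), and rho of 0.536 and 0.607 (exact permutation p = 0.236 and 0.167). Their r became 0.290 without T-ETV1 B and T-ETV1 D for the first and 0.799 without T-ETV1 B and T-ETV1 C for the second. Of the 21 pairs computed none passed after adjustment (lowest adjusted p 0.108 for r and 0.258 for rho), and Tmprss2 with Prss8 had a rho of -0.893 (exact permutation p = 0.0123) and an r of -0.542 (exact permutation p = 0.226), which was -0.709 without T-ETV1 A and T-ETV1 C.

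**Figure D4:**
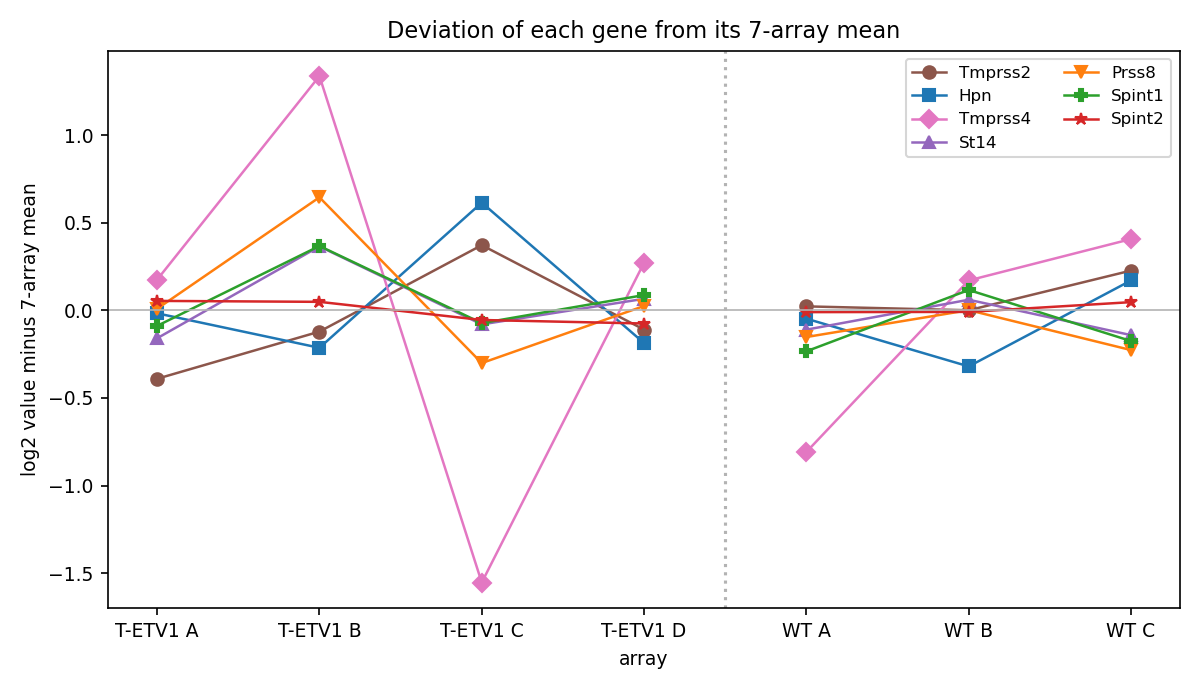
Log2 value of each gene minus its mean over the 7 arrays, by array, T-ETV1 at the left and WT at the right of the dotted line, from the probe set that stands for the gene. St14, Prss8 and Spint1 peak in the B arrays, Tmprss2 and Hpn in the C arrays, Tmprss4 varies most and Spint2 stays near 0.

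Related genes were described from 5 lists. Of 11 measured type II transmembrane proteases beside the 4 above, 6 (Tmprss11d, Tmprss11e, Tmprss11f, Tmprss11g, Tmprss15 and Corin) were at or under the background level on every array. Only Tmprss13 lay above it on all 7, with mean intensities of 3664 in T-ETV1 and 3356 in WT and a log2 difference of 0.13 ± 0.10. None passed, 9 were higher and 2 lower, and the list median was 0.13, beside -0.03 over all genes, of which 8075 of 18193 were higher. These counts include the 6 genes at or under the background level, and the median was the value of Tmprss15, which is 1 of them. Tmprss3 had 0.36 ± 0.22 (0.20 without WT C and 0.03 with the other-cell score as a covariate), Tmprss11e 0.19 ± 0.13 and Tmprss11d -0.16 ± 0.11, all at low intensities. The 1.55 ± 1.09 of Tmprss11a came from 1 array, with intensities of 532, 19.6, 6.73 and 16.6 on T-ETV1 arrays A to D, against 3.59, 5.17 and 6.73 on WT arrays A to C, and was 0.50 without T-ETV1 A.

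Of 12 tryptase-like and GPI-anchored serine proteases none passed, 6 were higher and 6 lower, and the median was 0.00. Prss36 had intensities of 245, 243, 227 and 224 on T-ETV1 arrays A to D, against 64.7, 176 and 190 on WT arrays A to C, so that the groups did not overlap. Of all genes 6.32% had no overlap, 2.42% with T-ETV1 higher and 3.9% with T-ETV1 lower. Its difference was 0.77 ± 0.33 (limma adjusted p = 0.818) and 0.33 without WT A. Prss22 had intensities of 262, 728, 650 and 768 on T-ETV1 arrays A to D, against 58.0, 339 and 340 on WT arrays A to C. The A arrays were the lowest of both groups, and T-ETV1 was higher in all 3 pairs, as were 11% of all probe sets. The Prss22 difference was 1.44 ± 0.66 (limma adjusted p = 0.822) and 0.69 without WT A. Prss41 differed by -0.92 ± 0.48 (-0.40 without WT A, -1.44 without WT C and -1.55 with the other-cell score as a covariate) and Prss32 by -0.34 ± 0.17.

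Of 23 measured substrates and receptors of these proteases none passed, 8 were higher and 15 lower, and the median was -0.14 (-0.28 without T-ETV1 C and -0.06 without WT C). Met, the receptor for hepatocyte growth factor, had intensities of 1847, 1533, 1981 and 1721 on T-ETV1 arrays A to D, against 1775, 2242 and 2820 on WT arrays A to C, a difference of -0.34 ± 0.18 (limma adjusted p = 0.850). T-ETV1 A and C lay above WT A, so the groups overlapped. The difference was -0.18 without WT C, -0.07 with the other-cell score as a covariate and -0.51 with the mean of the gene's probe sets. Epcam, an epithelial adhesion molecule cleaved by matriptase, had intensities of 5282, 6392, 5684 and 4688 on T-ETV1 arrays A to D, against 6685, 7159 and 5934 on WT arrays A to C, a difference of -0.26 ± 0.14 (limma adjusted p = 0.851). It was 0.12 with the mean of the gene's probe sets. The acid-sensing channel gene Asic1 (-0.61 ± 0.18) and the growth factor gene Mst1 (-0.46 ± 0.24, and -0.24 without WT A or -0.73 without WT B) had mean intensities under 20 in both groups.

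Of 12 measured genes with Kunitz domains beside Spint1 and Spint2 none passed, 5 were higher and 7 lower, and the median was -0.07. App, the amyloid precursor, some forms of which carry a Kunitz domain, had intensities of 3604, 3663, 3731 and 3826 on T-ETV1 arrays A to D, against 3866, 3909 and 4068 on WT arrays A to C. The groups did not overlap, by a narrow gap, and the difference was -0.09 ± 0.09 (limma adjusted p = 0.918), which turned to 0.05 after median centring. Tfpi, the tissue factor pathway inhibitor, had 0.29 ± 0.19 (0.09 without WT A, 0.47 without WT C, and -0.13 when its probe sets were averaged). Tfpi2 had -1.23 ± 0.61, which was -0.51 without WT C, -1.85 without WT A and -0.13 with the other-cell score as a covariate, and Eppin had -0.77 ± 0.30. Of 10 measured serpins, not all of which inhibit trypsin-like proteases, none passed, 3 were higher and 7 lower, and the median was -0.06. Serpinb9, an inhibitor of granzyme B, had intensities of 373, 432, 632 and 421 on T-ETV1 arrays A to D, against 552, 744 and 877 on WT arrays A to C, a difference of -0.63 ± 0.23 (limma adjusted p = 0.784), with both C arrays the highest, and -0.23 with the other-cell score as a covariate. With the mean of its probe sets the Serpinb9 difference was -0.94 (limma adjusted p = 0.643). Serping1, the C1 inhibitor, had intensities of 182, 129, 553 and 82.8 on T-ETV1 arrays A to D, against 286, 559 and 3646 on WT arrays A to C, and its difference of -2.10 ± 0.96 was -1.06 without WT C and -0.26 with the other-cell score as a covariate. Serpina5 differed by 1.47 ± 1.32, with values from 0.55 without T-ETV1 D to 2.41 without WT A, and Serpina1b by -0.10 ± 0.12.

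**Figure D5:**
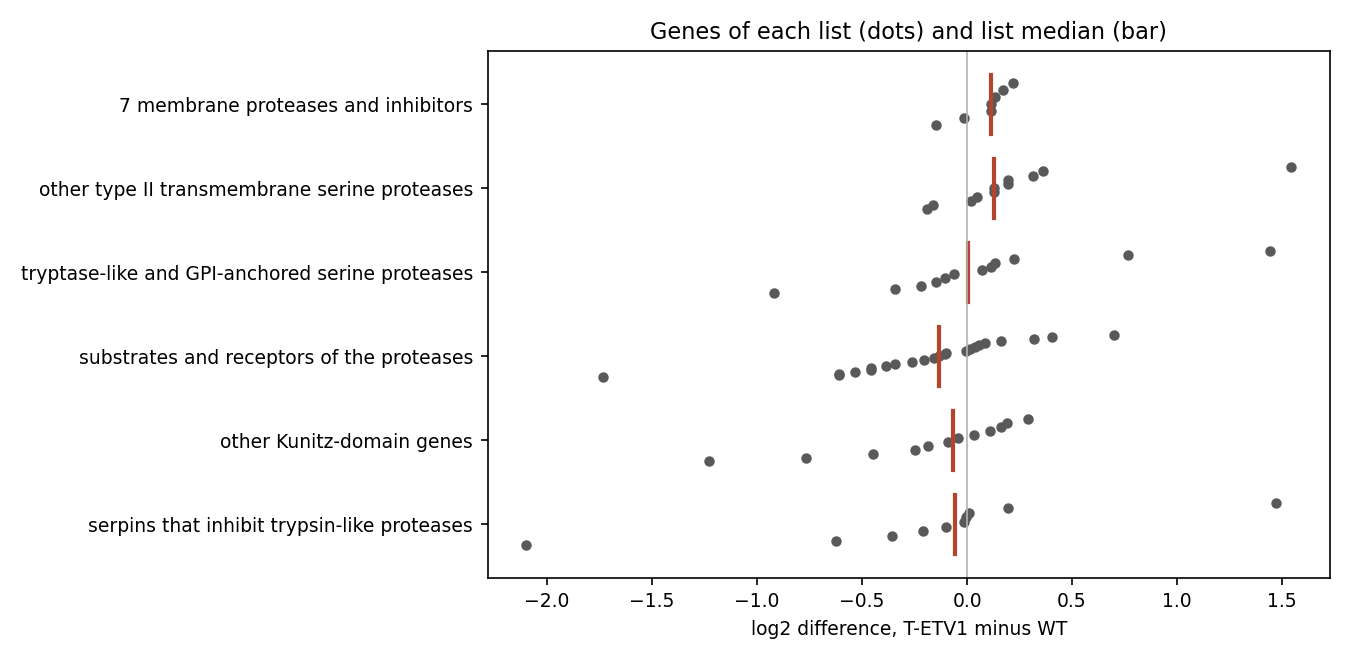
Log2 difference, T-ETV1 minus WT, of every measured gene of the 7 and of the 5 related lists (dots), with the median of each list as a red bar. The 7 lie between -0.15 and 0.22, and the widest differences are those of single genes in the related lists.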

How the data were processed

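RNA of the sorted cells was amplified (NuGEN V2 kit) before hybridisation, per the labels' protocols. The deposited table gives a linear intensity for each probe set on each array, and how the authors summarised and scaled them is not given in the sources used here. Array medians lay between 48.5 and 73.7. On the log2(intensity + 16) scale they differed by at most 0.476, under the limit of 0.5 for quantile normalization, so the deposited scaling was kept. This scale understates changes of dim genes. The platform annotation gave 1 symbol for 34945 probe sets, several for 932 and none for 9160. The probe set with the highest mean stood for a gene.

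Models were fitted to the genes and, separately, to all probe sets (limma 3.58.1, R 4.3.3, T-ETV1 minus WT, lmFit and eBayes, two-sided, Benjamini-Hochberg, threshold 0.05). Correlations had exact two-sided permutation tests. The fit was also run on simulated independent values with changes far larger than those of the 7 genes. That run does not show how well the fit finds small differences. Replicate letters correlated in their deviations from the group means at 0.281 for A, 0.217 for B and 0.356 for C. Other combinations of arrays ran from -0.320 to 0.187, the highest being T-ETV1 D with WT A. The labels give the letters and no pairing across genotypes. The letter pairs, used also as a block in an alternative, are therefore inferred. Genes named were the 7, up to 4 of each list by smallest unadjusted p (Tmprss13 in addition, chosen after its values were seen), the Tmprss2 neighbours and the 5 genes most like Tmprss2. Members and lists were chosen with earlier results of these data known. The number of arrays limits the precision. Alternatives covered the scaling, the pseudocount, the filter on dim genes, the choice of probe set, the fit's settings, the block, the other-cell score as a covariate and leaving out arrays. Listed genes without a probe set were not analysed here.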

Additional observations from a re-analysis of the deposited data

Results flagged for a closer look

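Of 18 quantities examined in the 4 T-ETV1 arrays, the 11 probe sets and 7 marker scores, 1 had an array far from the others. The mean score of the 5 other-cell lists was 0.796 in T-ETV1 C and from -1.26 to -1.03 in the other T-ETV1 arrays, and the gap was 0.888 of the whole range, above Dixon's 95% critical value for 4 arrays. Chance gives such a gap in about 1 of 20 groups. The same array had the highest values of the brightest Tmprss2 probe set and of Hpn and the lowest Tmprss4 value of the 7, and the results for these genes are given with and without it above.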

How the results depend on the processing

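Each of the 7 genes was refitted under 19 alternatives. Of the 133 values none passed the threshold (smallest limma adjusted p 0.570), 121 kept their sign and 12 did not. With the other-cell covariate the sign turned for Tmprss2 (0.13), its probe sets 1419154_at (0.013) and 1449369_at (0.21), Tmprss4 (-0.25) and Prss8 (-0.003), and among other genes for C2cd2 (-0.006), Herc6 (0.27), Hexim1 (0.13), Lmnb1 (0.57), Marcks (0.12), Mx1 (-0.023) and Ripk4 (0.26). The covariate differs between the genotypes, and the cause was not tested. The median difference of all genes was 0.11 after median centring and 0.02 after quantile normalization. Under median centring the sign turned for Spint2 (0.12 and, for 1438968_x_at, 0.13), App (0.046), Ripk4 (0.009) and Serpina1b (0.034). With the replicate block, on arrays A to C, it turned for Spint2 (0.007 and, for 1438968_x_at, 0.012) and C2cd2 (-0.017), and the block changed no call. Without both C arrays it turned for Spint2 (0.019 and, for 1438968_x_at, 0.037) and Mx2 (0.078). For 1438968_x_at it also turned after quantile normalization (0.01) and with array weights (0.028). With the mean of probe sets it turned for Epcam (0.12) and Tfpi (-0.13). Leaving out 1 array at a time gave ranges of -0.29 to -0.04 for Tmprss2, -0.29 to 0.67 for Tmprss4, 0.01 to 0.18 for St14, -0.074 to 0.233 for Hpn, 0.04 to 0.35 for Prss8, 0.07 to 0.28 for Spint1, and -0.037 to 0.007 for Spint2 (-0.036 to 0.019 for 1438968_x_at). Among the other genes the range crossed 0 for C2cd2 (-0.066 to 0.104), Mx1 (-0.018 to 0.172), Prdm15 (-0.005 to 0.417), Ripk4 (-0.274 to 0.064), Serpina1b (-0.175 to 0.003) and Zbtb21 (-0.014 to 0.331). The number of genes called over the whole table was 0 in the fit on all arrays, 0 to 27 without 1 array (27 without T-ETV1 C and 7 without WT C) and 68 without both C arrays, none of them among the 7. Values near the background level say little about change, since the added 16 compresses them.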
